A study of Mus musculus with 12 samples.

Results

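The 10 genes described here encode the enzymes that build, desaturate and elongate fatty acids, with their main transcriptional regulator: the stearoyl-CoA desaturases Scd1 and Scd2, fatty acid synthase (Fasn), acetyl-CoA carboxylase alpha (Acaca), ATP citrate lyase (Acly), the elongase Elovl6, the polyunsaturated fatty acid desaturases Fads1 and Fads2, cytosolic malic enzyme (Me1) and the sterol regulatory element-binding factor gene Srebf1. They were chosen by symbol, with earlier results of these libraries in view, and are 10 of the 52459 gene symbols in the table. Their own values are therefore described below without p-values, and counts of them past a threshold are given as a description. Choroid plexus, the frond of epithelial cells over vessels and connective tissue that secretes cerebrospinal fluid into the brain ventricles, was taken from B6 mice at 4 ages with 3 libraries each: E12.5 (an embryonic stage), P0 (the day of birth), P14 (postnatal day 14) and A6m (adults of 6 months). The labels name no treatment or genotype for these libraries, give the specimens as independent and do not give their sex. The study also concerned FoxJ1-/- choroid plexus, which was not analysed here.

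Cytosolic fatty acid synthesis starts from citrate exported by mitochondria. Acly cleaves citrate to acetyl-CoA, Acaca carboxylates acetyl-CoA to malonyl-CoA, and Fasn condenses these into palmitate with NADPH that Me1 helps to supply. Elovl6 elongates palmitate to stearate, Scd1 and Scd2 insert the first double bond, and Fads1 and Fads2 desaturate dietary precursors to the long polyunsaturated fatty acids that are abundant in brain membranes. Srebf1 encodes SREBP-1, which activates many of these genes, whereas Srebf2 encodes SREBP-2, which favours the genes of cholesterol synthesis. In mouse brain Scd2 is the main desaturase, and Scd1 is best known from liver, adipose tissue and skin.

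Scd2, Scd4 and Scd1 lie next to one another with Scd3 on chromosome 19 of GRCm38 (GENCODE M21 annotation). Scd3 occupies 44203269 to 44244016 on the plus strand, Scd2 occupies 44293674 to 44306864 on the plus strand, Scd4 occupies 44333092 to 44346743 on the plus strand and Scd1 occupies 44394455 to 44407879 on the minus strand. The same chromosome carries Fads3 at 10041569 to 10060110 (plus), Fads2 at 10062765 to 10101746 (minus) and Fads1 at 10182888 to 10196877 (plus). Srebf1 (60199089 to 60222581, minus), Acaca (84129672 to 84401651, plus), Acly (100476353 to 100528000, minus) and Fasn (120805846 to 120824547, minus) are spread over chromosome 11. Elovl6 is on chromosome 3 (129532355 to 129638495, plus) and Me1 on chromosome 9 (86581371 to 86695953, minus).

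RefSeq promoter windows on GRCm38.p6, from 250 bases before to 50 bases after a transcript start, were found for 7 of the 10 genes. Those of Fasn and Acly are shown beside those of Me1 and Fads2. In the deposited values, Fasn and Acly were highest at E12.5, and Me1 and Fads2 at A6m. Capitals mark CCAAT boxes and GC boxes (GGGCGG), searched on both strands.
Fasn promoter: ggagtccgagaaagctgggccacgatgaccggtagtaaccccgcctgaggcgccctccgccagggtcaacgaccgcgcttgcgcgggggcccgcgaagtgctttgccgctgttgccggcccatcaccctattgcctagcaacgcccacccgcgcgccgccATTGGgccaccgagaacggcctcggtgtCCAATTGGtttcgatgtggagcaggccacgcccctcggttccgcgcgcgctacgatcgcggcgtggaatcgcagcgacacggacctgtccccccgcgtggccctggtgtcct
Acly promoter: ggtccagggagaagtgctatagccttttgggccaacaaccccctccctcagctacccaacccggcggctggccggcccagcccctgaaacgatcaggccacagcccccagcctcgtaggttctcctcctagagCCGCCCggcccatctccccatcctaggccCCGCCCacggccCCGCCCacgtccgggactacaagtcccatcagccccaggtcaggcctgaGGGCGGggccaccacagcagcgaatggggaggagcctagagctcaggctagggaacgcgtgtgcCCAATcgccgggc
Me1 promoter: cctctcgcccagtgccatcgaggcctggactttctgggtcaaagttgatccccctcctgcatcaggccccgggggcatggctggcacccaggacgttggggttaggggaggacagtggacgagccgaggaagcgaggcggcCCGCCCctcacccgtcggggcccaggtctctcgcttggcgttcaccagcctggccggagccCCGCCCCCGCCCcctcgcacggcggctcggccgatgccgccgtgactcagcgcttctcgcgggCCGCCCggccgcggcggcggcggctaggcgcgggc
Fads2 promoter: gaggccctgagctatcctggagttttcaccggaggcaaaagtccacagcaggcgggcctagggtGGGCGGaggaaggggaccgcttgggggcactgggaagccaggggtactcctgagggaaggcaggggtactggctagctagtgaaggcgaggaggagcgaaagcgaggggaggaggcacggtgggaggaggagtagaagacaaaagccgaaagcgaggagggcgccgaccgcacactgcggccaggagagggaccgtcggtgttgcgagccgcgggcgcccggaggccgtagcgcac
The Fasn window is chr11:120824498-120824797, the Acly window chr11:100527951-100528250, the Me1 window, the first of its 2 listed starts, chr9:86695865-86696164 and the Fads2 window chr19:10101454-10101753, all on the minus strand. The Fasn window held 3 CCAAT boxes and no GC box, and the boxes that begin at positions -62 and -59 from the transcript start overlap on opposite strands. The Acly window held 4 GC boxes and 1 CCAAT box, the Me1 window 4 GC boxes and the Fads2 window 1 GC box. Counting every listed start, these genes have 10 windows. A CCAAT box stood in 5 of the 10 and a GC box in 5 of the 10, where 37.4% and 35.7% of all 32851 mouse promoter windows of that length hold these letters. The E-box CACGTG, present in 7.15% of all promoters, and the sterol regulatory element core TCACNCCAC, present in 1.24%, matched none of the 10 windows. These matches are a description of the windows.

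Values are TPM, a transcript abundance adjusted for length that sums to the same total in every library, so levels can be set side by side between genes. The read depth of the libraries is unknown. Transcripts of Ttr, the thyroid hormone carrier that marks choroid plexus epithelium, took 11200 to 21003 TPM at E12.5. In the libraries of the later ages they took between 137440 and 168700 TPM, which by itself leaves less of the fixed sum to other genes. Ttr differed less after birth, with 141190 to 143160 TPM at P0 and 151580 to 168700 TPM at P14. Erythroid markers went the other way, with 55662 to 62718 TPM at E12.5 and 6654 to 13501 TPM at P0. The part of either in the medians that follow was not tested. Over the 17422 genes tested, the median log2 difference was -0.27 for P0 against E12.5, -0.41 for P14 against P0, -0.04 for A6m against P14 and -0.71 for A6m against E12.5. Median-of-ratios scaling, which centres the middle of the genes, brought these medians to between -0.02 and 0.00, and differences with this scaling are called scaled below. For other lipid genes they are given where scaling moved a printed difference by over 1.5 times. E12.5 replicate 1 stood apart, with 93141 TPM in the ribosomal RNA-associated row Mir6236. Xist transcripts reached 148 to 155 TPM at A6m and did not exceed 0.808 TPM at P14 and P0, while the Y-linked Ddx3y was at most 0.366 TPM at A6m and 80.1 to 117 TPM at P14 and P0. E12.5 libraries were mixed in both, with Xist between 0.389 and 139 TPM. The A6m libraries and the P14 and P0 libraries therefore also differed in sex transcripts, and age and sex cannot be told apart in comparisons with A6m.

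Summed markers of choroid plexus epithelium lay between 12486 and 23148 TPM at E12.5, 146240 and 148210 TPM at P0, 157150 and 174170 TPM at P14, and 143510 and 152150 TPM at A6m. Ttr made up most of each sum, with 141190 to 143160 TPM at P0, so the sums mainly follow Ttr. Other epithelial markers went both ways after birth. Aqp1 averaged 654 TPM at P0 and 176 TPM at A6m, and Kl 52.2 and 866 TPM. Marker sums of 5 other cell groups were lower at each later age without overlap. At the same ages, dividing cell markers summed to 781 to 838, 99.8 to 102, 21.6 to 26.9 and 10.4 to 13.8 TPM, endothelial markers to 462 to 508, 240 to 332, 92.1 to 124 and 28.5 to 45.2 TPM, and stromal fibroblast markers to 1079 to 1426, 601 to 623, 285 to 332 and 189 to 261 TPM. Macrophage markers summed to 147 to 186, 92.9 to 110, 43.6 to 45.9 and 22.2 to 37.7 TPM. Erythroid markers, mostly globins, took 55662 to 62718, 6654 to 13501, 778 to 909 and 149 to 564 TPM. Single markers did not all follow these sums. By the limma calls defined below, 2 of 7 tested fibroblast markers rose and 5 fell in P0 against E12.5. Of 9 erythroid markers, 1 rose and 8 fell there. Dcn averaged 176 TPM at P0 and 43.9 TPM at E12.5, Pdgfra 125 and 54.8 TPM, and Hbb-bs 4382 and 1415 TPM. In bulk tissue, fewer cells of a type and less RNA per cell cannot be told apart, and the part of these shifts in the results below was not tested. Markers of adipocytes, which make fatty acids in quantity, were near 0: the 7 adipocyte markers summed to at most 1.04 TPM at A6m and at most 5.08 TPM in any library, and Cidec, Lep and Cfd were listed at 0 in every A6m library. Oligodendrocyte markers, from cells that make myelin lipids, summed to 27.6 to 33.5 TPM at A6m and 40.6 to 78.7 TPM at P14.

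In the deposited values, the first 3 enzymes of the pathway, Acly, Acaca and Fasn, were most abundant in the embryo and stood lower at birth. Fasn, which makes palmitate, had 18.1, 19.3 and 19.4 TPM in the P0 libraries, against 31.7, 43.8 and 35.7 TPM in the E12.5 libraries. The ages did not overlap, and the log2 difference was -0.92 ± 0.13 (SE), or -0.64 with scaling. Dividing cell markers were lower in the same libraries, as given above, and their part was not tested. Fasn was lower again at P14, with 12.47, 11.9 and 9.39 TPM (P14 against P0, -0.71; scaled, -0.23), and the A6m libraries at 14.8, 11.7 and 13.5 TPM overlapped the P14 libraries. Set against E12.5, the A6m level of 13.3 ± 1.55 TPM was lower than 37.1 ± 6.14 TPM (SD, n = 3 each), a log2 difference of -1.40 that shrank to -0.59 with scaling.

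Acaca, the carboxylase that commits acetyl-CoA to fatty acids, reached its lowest level at P14. Its libraries had 24.3, 27.8 and 31.8 TPM at E12.5, 13.5, 14.8 and 17.9 TPM at P0, 8.65, 6.41 and 8.38 TPM at P14, and 15.2, 13.9 and 16.8 TPM at A6m. Every P14 library lay below every library of the other ages. The log2 difference was -0.82 ± 0.14 for P0 against E12.5, -0.90 for P14 against P0 and 0.89 for A6m against P14 (scaled, -0.54, -0.43 and 0.96). Adult Acaca was 1.96-fold its P14 level and overlapped the P0 libraries. Against E12.5 its A6m difference of -0.82 came to -0.01 with scaling.

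Acly, which supplies cytosolic acetyl-CoA, was the most abundant of the 3 at every age. It had 39.3, 39.4 and 39.3 TPM at P0, against 57.6, 70.3 and 61.6 TPM at E12.5, a log2 difference of -0.67 ± 0.08 (-0.38 with scaling). The A6m libraries held 41.9, 43.9 and 45.6 TPM and the P14 libraries 36.2, 33.1 and 36.4 TPM, so that the A6m libraries lay above those of P14 and P0 without overlap. The direction of Acly depended on the scale in the wider comparisons, since P14 against P0 gave -0.16 as deposited and 0.35 with scaling, and A6m against E12.5 gave -0.52 and 0.32. Within libraries, the ratio of Acaca to Acly, which a scaling of the whole library does not alter, was 0.445 ± 0.0636 at E12.5 and 0.391 ± 0.0573 at P0, then 0.221 ± 0.0240 at P14 and 0.350 ± 0.0282 at A6m.

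Me1, which makes NADPH from malate in the cytosol, took the opposite course and was higher at each later age. Its libraries held 22.2, 29.4 and 30.95 TPM at E12.5, 46.0, 44.7 and 43.5 TPM at P0, 65.7, 57.1 and 70.0 TPM at P14, and 83.4, 75.3 and 81.1 TPM at A6m. No neighbouring ages overlapped. The adult mean of 80.0 ± 4.16 TPM was 2.91-fold the embryonic mean of 27.5 ± 4.66 TPM, a log2 difference of 1.52 ± 0.12, or 2.35 with scaling. Transcripts of Me1 per transcript of Acly went with it, at 0.435 ± 0.0603 at E12.5 and 1.14 ± 0.0333 at P0, then 1.82 ± 0.0972 at P14 and 1.83 ± 0.144 at A6m. The ratio did not separate P14 from A6m.

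**Figure D1:**
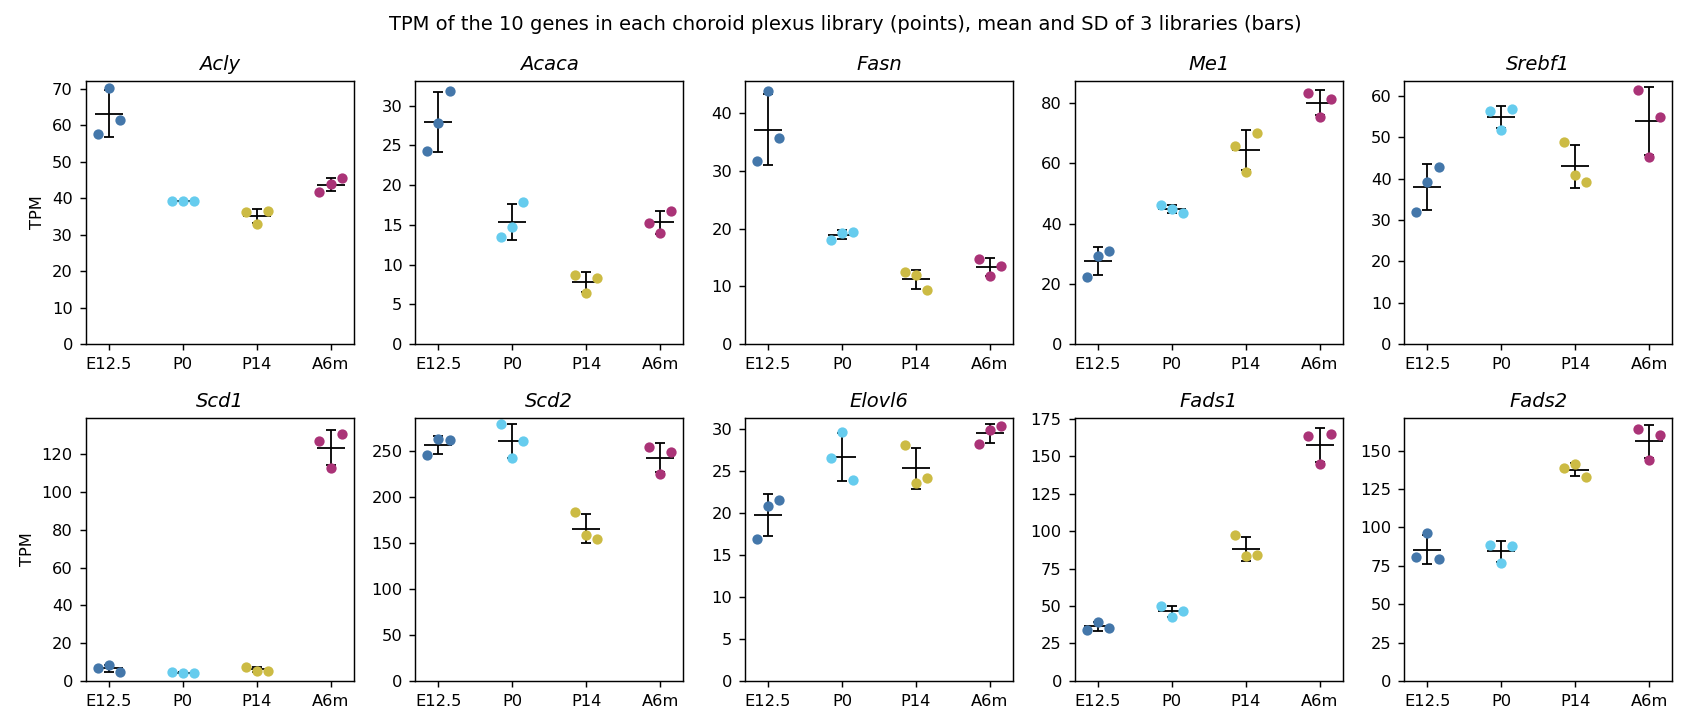
TPM of each of the 10 genes in the 12 libraries (points, 1 panel a gene, linear axis from 0) with the mean and SD of 3 libraries an age (bars). Fasn, Acaca and Acly are highest at E12.5, Me1, Fads1 and Fads2 are highest at A6m, and Scd1 stands near 124 TPM at A6m against means of 4.30 to 6.71 TPM at the earlier ages.

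Scd1 differed most of the 10 genes, and almost all of its difference lay between P14 and 6 months. Its libraries had 6.70, 8.67 and 4.77 TPM at E12.5, 4.54, 3.95 and 4.42 TPM at P0, 7.56, 5.43 and 5.49 TPM at P14, and 127, 113 and 131 TPM at A6m. The lowest adult library was far above the highest library of any earlier age, and the P14 libraries overlapped those of E12.5. The adult mean of 124 ± 9.38 TPM was 20.1-fold the P14 mean of 6.16 ± 1.21 TPM, with a log2 difference of 4.13 ± 0.17 on the log2(TPM + 1) scale and 4.22 with scaling. By this difference Scd1 ranked 6 among the 17422 tested genes. In the order of abundance, 96.0% of tested genes had a lower mean than Scd1 at A6m, and at E12.5, P0 and P14 this share was 35.7%, 32.4% and 47.1%. P0 against E12.5 gave a small difference of the opposite sign, -0.51 ± 0.17 (-0.26 with scaling).

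Scd2, by contrast, was abundant at every age and, as deposited, was lowest at P14. It had 245, 262 and 262 TPM at E12.5, 279, 242 and 260 TPM at P0, 183, 158 and 154 TPM at P14, and 254, 225 and 249 TPM at A6m. The P14 libraries lay below all others, and those of E12.5, P0 and A6m overlapped one another. This order depended on the scale: P0 against E12.5 gave 0.02 as deposited and 0.31 scaled, and A6m against E12.5 gave -0.08 and 0.77, so that with scaling E12.5 had the lowest level. The log2 difference was -0.65 ± 0.08 for P14 against P0, which came to -0.14 with scaling, and 0.55 for A6m against P14 (0.61 with scaling). At least 97.2% of tested genes had lower means than Scd2 at each of the 4 ages.

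Scd2 supplied nearly all Scd transcripts up to P14, and Scd1 came to a larger part of them at 6 months. Scd1 made up 2.55% ± 0.710 of the summed Scd1 and Scd2 transcripts at E12.5 and 1.62% ± 0.0405 at P0, then 3.57% ± 0.342 at P14 and 33.7% ± 0.616 at A6m. The adult libraries had Scd1 to Scd2 ratios between 0.500 and 0.525, and the highest ratio at an earlier age was 0.0412. The sum of both was 263 ± 9.87 TPM at E12.5, 265 ± 18.8 TPM at P0, 172 ± 16.9 TPM at P14 and 366 ± 24.3 TPM at A6m. Scd3 was at most 0.659 TPM and Scd4 at most 0.627 TPM in any library, below the level for testing. Scd1 transcripts share 5.18% of their 31-base words with Scd2 and 5.84% with Scd3 (GENCODE M21 transcripts), and reads from the shared words could be assigned to either gene.

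Elovl6, which elongates palmitate, was lowest in the embryo and, as deposited, differed little between the later ages. Its libraries had 16.9, 20.8 and 21.5 TPM at E12.5, 26.5, 29.7 and 23.9 TPM at P0, 28.1, 23.6 and 24.2 TPM at P14, and 28.2, 29.9 and 30.4 TPM at A6m. The P0 libraries lay above those of E12.5 (0.42 ± 0.11; scaled, 0.69), and the P14 and P0 libraries overlapped, with a sign that changed with scaling (-0.07 and 0.42). The A6m libraries exceeded the P14 libraries by 0.22 ± 0.11 on the log2 scale (scaled, 0.27), with the nearest libraries at 28.2 and 28.1 TPM. Because Fasn was lower after E12.5 while Elovl6 was not, the Elovl6 to Fasn ratio was 0.536 ± 0.0630 at E12.5 and 1.41 ± 0.159 at P0, then 2.27 ± 0.295 at P14 and 2.23 ± 0.324 at A6m.

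Fads1 and Fads2, the delta-5 and delta-6 desaturases of polyunsaturated fatty acids, were both highest in the adult. Fads1 had 33.8, 39.6 and 35.6 TPM at E12.5, 49.7, 42.6 and 46.9 TPM at P0, 97.5, 83.2 and 83.8 TPM at P14, and 163, 144 and 165 TPM at A6m. Each later age lay above the one before it without overlap. The log2 difference of Fads1 was 0.35 ± 0.09 for P0 against E12.5, 0.91 for P14 against P0, 0.83 for A6m against P14 and 2.09 for A6m against E12.5, a 4.33-fold level (scaled, 0.62, 1.42, 0.89 and 2.92).

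Fads2 had 80.4, 96.2 and 79.5 TPM at E12.5, 88.7, 76.6 and 87.6 TPM at P0, 139, 141 and 133 TPM at P14, and 164, 144 and 160 TPM at A6m. It overlapped between P0 and E12.5 (-0.02 ± 0.09; scaled, 0.27), and its main step was 0.70 for P14 against P0 (scaled, 1.21). The A6m libraries exceeded the P14 libraries by 0.18 ± 0.09 (scaled, 0.23), with no overlap but a narrow gap. The ratio of Fads1 to Fads2 within a library was 0.427 ± 0.0187 at E12.5 and 0.551 ± 0.0130 at P0, then 0.642 ± 0.0576 at P14 and 1.01 ± 0.0184 at A6m, so that both genes stood at about the same level in the adult. Fads1 and Fads2 transcripts share none of their 31-base words.

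**Figure D2:**
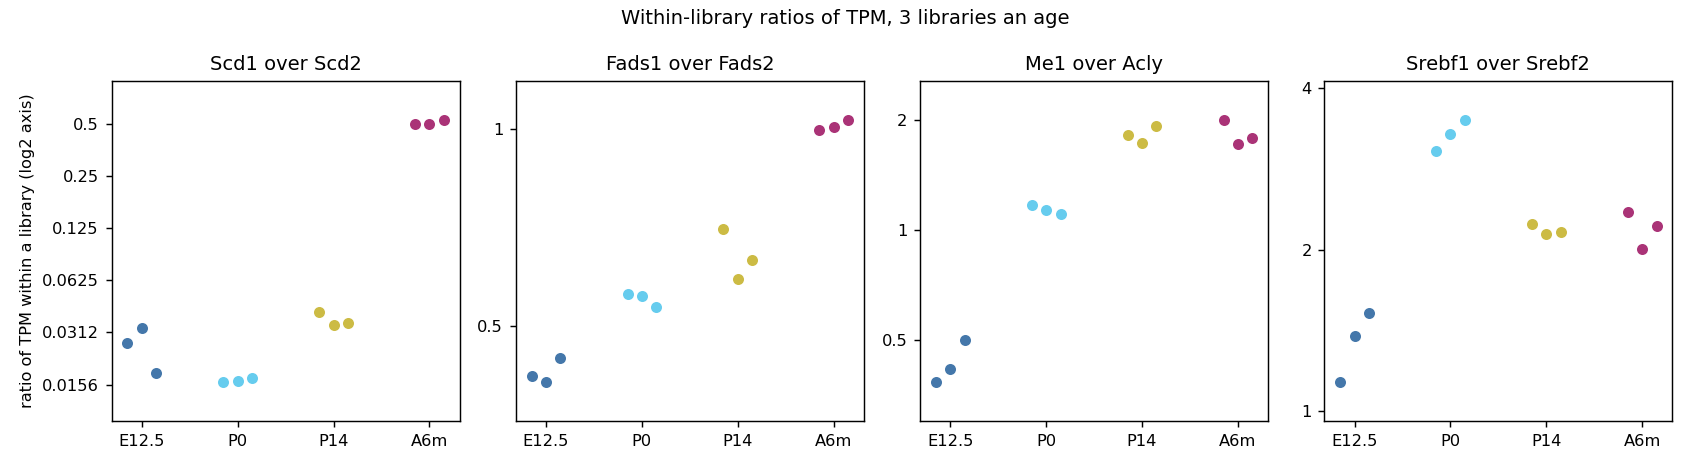
TPM ratio of pairs of genes in each library, on a log2 axis, by age, with 3 points an age. The Scd1 to Scd2 ratio averages 0.509 at A6m against 0.0370 at P14, the Fads1 to Fads2 ratio reaches 1.01 at A6m, the Me1 to Acly ratio lies at 1.82 at P14 and 1.83 at A6m, and the Srebf1 to Srebf2 ratio is highest at P0.

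As deposited, Srebf1 had its highest means at P0 and A6m. It had 31.9, 39.1 and 42.9 TPM at E12.5, 56.3, 51.8 and 56.7 TPM at P0, 48.8, 40.9 and 39.2 TPM at P14, and 61.5, 45.3 and 54.9 TPM at A6m. Libraries of P0 lay above those of E12.5 (0.53 ± 0.13; scaled, 0.81), and the A6m and P14 libraries overlapped at a difference of 0.32 ± 0.13 (scaled, 0.37). P14 against P0 gave -0.35 as deposited and 0.15 with scaling. The course of Srebf1 as deposited differed from that of Scd1, with 55.0 ± 2.71 TPM at P0, the age at which Scd1 was lowest at 4.30 ± 0.309 TPM. With scaling P0 against E12.5 gave 0.81 ± 0.09 for Srebf1 and -0.26 ± 0.18 for Scd1. Pearson's r of Scd1 and Srebf1 over the 12 libraries was 0.36 as deposited and 0.68 with scaling. The table has 1 row for Srebf1, so the SREBP-1a and SREBP-1c isoforms of Srebf1 were not separated here.

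By the limma threshold used for all genes (an adjusted p under 0.05), 5 of the 10 genes passed the threshold for higher in A6m against P14 and none for lower, where 8.78% of all tested genes passed for higher. The 5 others had differences of 0.18 to 0.32 on the log2 scale. For P0 against E12.5, 4 genes passed for higher and 4 for lower, where 18.6% and 43.7% of all tested genes did. For P14 against P0, 3 passed for higher and 4 for lower, where 5.33% and 53.5% did. For A6m against E12.5, 6 passed for higher and 3 for lower, where 15.2% and 62% did. With scaling the counts were 8 higher and 0 lower in A6m against P14 (15.2% and 14% of all genes), 5 and 3 in P0 against E12.5 (29% and 31%), 6 and 1 in P14 against P0 (22.7% and 19.8%), and 8 and 1 in A6m against E12.5 (35.4% and 35.8%). Libraries of the later age lay above those of the earlier age without overlap for 8 genes and below for 0 in A6m against P14 (18.4% and 25.9% of all genes), for 4 and 4 in P0 against E12.5 (19.2% and 43.5%), for 4 and 5 in P14 against P0 (7.16% and 62.1%), and for 6 and 3 in A6m against E12.5 (15.5% and 61.5%). The choice of the genes used these values, so nothing is read from these counts. Together the 10 genes summed to 598 ± 44.1 TPM at E12.5, 596 ± 28.5 TPM at P0, 584 ± 37.2 TPM at P14 and 915 ± 60.0 TPM at A6m.

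**Figure D3:**
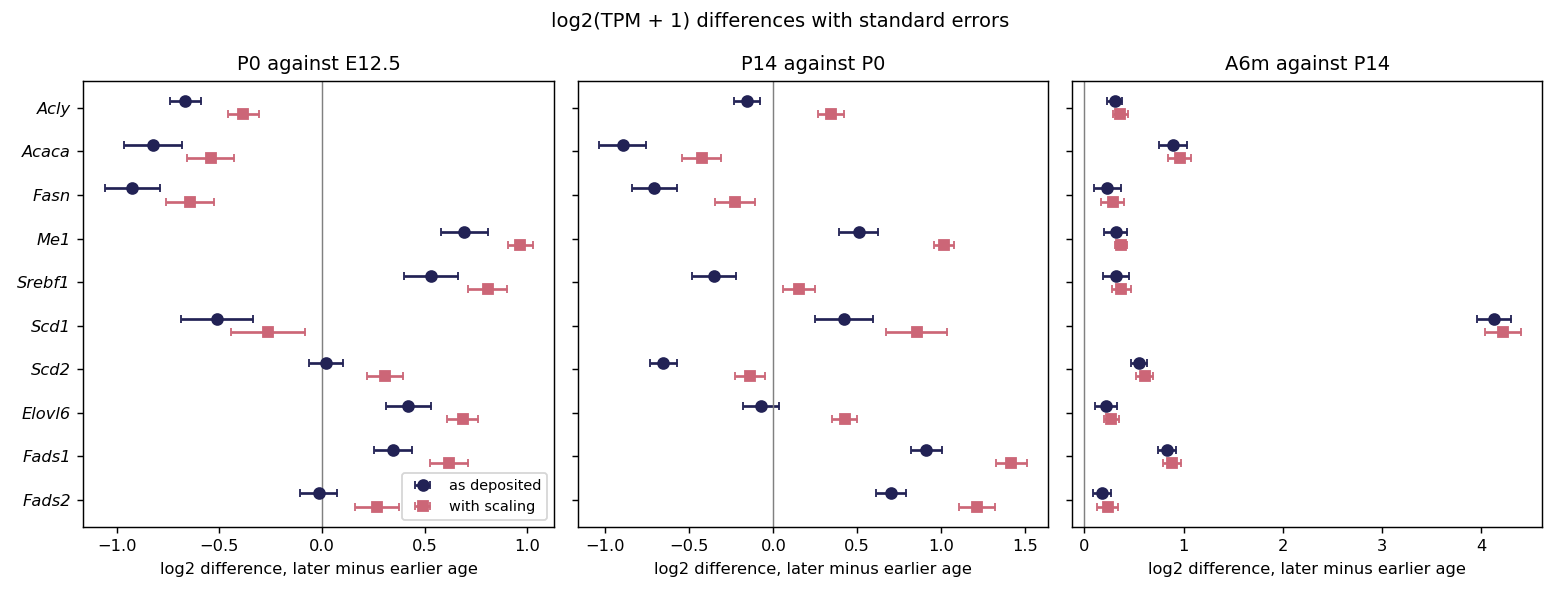
log2 differences of the 10 genes with standard errors for 3 steps between ages, as deposited (circles) and with median-of-ratios scaling (squares); the panels differ in their horizontal range. Acly, Elovl6 and Srebf1 change sign with scaling in P14 against P0 and Fads2 in P0 against E12.5, all 10 genes are at or above 0 in A6m against P14, and Scd1 stands at 4.13.

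Across the 12 libraries, Fads1 and Fads2 were, as deposited, the most alike pair of the 10 genes with Me1 close to them: Pearson's r of log2(TPM + 1) was 0.95 for Fads1 and Fads2 and 0.93 for Fads1 and Me1. Acaca and Acly gave 0.91 and Fasn and Acaca 0.88, whereas Fasn and Me1 gave -0.89. These libraries share only 4 ages, so each r reflects mainly 4 group levels and describes these samples. With scaling the values were 0.98 for Fads1 and Fads2, 0.97 for Fads1 and Me1, 0.47 for Acaca and Acly, 0.67 for Fasn and Acaca and -0.75 for Fasn and Me1. Elovl6 and Me1 then gave 0.98 (0.84 as deposited), level with Fads1 and Fads2, and Scd1 and Scd2 gave 0.87 (0.17 as deposited). The genes with the pattern most like Scd1, among 7319 compared, were Hsd17b12 (r = 0.97), Pcgf1 (0.96) and Cpxm2 (0.96). Hsd17b12 encodes a ketoreductase of the fatty acid elongation cycle. For Scd2 they were Vwa5b1 (0.94), Prkaa1 (0.91) and Wsb2 (0.91), and for Fasn they included Slc44a2 and Rbm4 (0.99 each). With scaling, Cpxm2 stayed among the 3 most alike for Scd1 and Slc44a2 for Fasn, and none of the 3 did for Scd2.

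Of the other genes of fatty acid metabolism, 122 were listed by role and 117 were expressed enough to be tested. None of them is among the 10 genes, and their values come from the same libraries. Calls are at an adjusted p under 0.05 by limma over all 17422 tested genes. In A6m against P14, 22 of the 117 rose and 10 fell, where 20.9% of all genes changed (8.78% rose and 12.1% fell). The median log2 difference was 0.05 there, against -0.04 for all tested genes. With scaling 31 rose and 13 fell, where 15.2% and 14% of all genes did. In P0 against E12.5, 48 rose and 37 fell, where 62.3% of all genes changed (18.6% rose and 43.7% fell). With scaling 66 rose and 19 fell there, where 29% and 31% did. In P14 against P0, 10 rose and 48 fell, where 58.8% of all genes changed (5.33% rose and 53.5% fell). With scaling 54 rose and 9 fell there, where 22.7% and 19.8% did. In A6m against E12.5, 45 rose and 43 fell, where 77.2% of all genes changed (15.2% rose and 62% fell). With scaling 81 rose and 17 fell there, where 35.4% and 35.8% did. The balance of rising and falling genes thus depended on the scale in each comparison but A6m against P14, and no direction is given for the whole list in those 3 comparisons.

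The list around acetyl-CoA, malonyl-CoA and NADPH supply held 14 genes, some of which use or regulate these molecules rather than supply them. In A6m against P14, 5 of the 14 rose and 1 fell, where 8.78% of all tested genes rose and 12.1% fell (7 and 1 with scaling). The gene that fell, Thrsp, averaged 0.509 TPM at A6m and 1.38 TPM at P14. Acss2, which makes acetyl-CoA from acetate, had 23.8, 18.9 and 22.2 TPM at A6m, against 11.5, 10.6 and 12.9 TPM at P14, and rose by 0.84 on the log2 scale (adjusted p = 3.00e-04, limma). Idh1, which makes NADPH from isocitrate, averaged 95.0 ± 4.47 TPM at A6m and 62.0 ± 2.43 TPM at P14 and rose by 0.61 (adjusted p = 1.85e-04, limma). G6pdx, the first enzyme of the pentose phosphate pathway, averaged 13.4 ± 1.11 TPM at A6m and 7.26 ± 0.919 TPM at P14 and rose by 0.81 (adjusted p = 8.60e-04, limma). Acacb, the acetyl-CoA carboxylase beta whose malonyl-CoA restrains mitochondrial oxidation, had 16.8, 16.4 and 16.8 TPM at P0, against 2.29, 4.17 and 4.13 TPM at E12.5, and rose by 1.99 ± 0.16 (adjusted p = 1.78e-06, limma). The Acaca to Acacb ratio was 8.33 ± 2.04 at E12.5 and 0.923 ± 0.133 at P0, then 0.504 ± 0.0577 at P14 and 0.750 ± 0.0770 at A6m. Malate dehydrogenase 1 (Mdh1), which interconverts malate and oxaloacetate in the cytosol, rose at P0 with 634 ± 15.4 TPM, against 257 ± 30.5 TPM at E12.5 (adjusted p = 1.61e-07, limma). Pgd of the pentose phosphate pathway fell in A6m against E12.5, with 23.9 ± 1.65 TPM at A6m against 74.0 ± 5.01 TPM at E12.5 (-1.59, adjusted p = 6.41e-09, limma; scaled, -0.76). Mitochondrial fatty acid synthesis, whose product is used for lipoate, held 10 genes, of which 1 rose and 4 fell in P0 against E12.5, where 18.6% of all tested genes rose and 43.7% fell. With scaling 3 rose and 1 fell there, so no direction is given for this list. In A6m against P14, 1 of the 10 rose, where 8.78% of all tested genes did. That gene, Acsf3, was at 7.17 ± 0.477 TPM at A6m and 5.53 ± 0.0444 TPM at P14 (0.32, adjusted p = 0.0121, limma), a call lost without A6m replicate 1.

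The other desaturases and elongases included several genes that were scarce in the embryo. Elovl7, an elongase of saturated very long chain acids, had 94.9, 106 and 97.9 TPM at P0, against 7.79, 8.20 and 13.4 TPM at E12.5, and rose by 3.26 ± 0.16 (adjusted p = 4.05e-08, limma). It was at 200 ± 4.01 TPM at A6m and 136 ± 14.3 TPM at P14, a rise of 0.56 (adjusted p = 0.0278, limma). Fads3, a relative of Fads1 and Fads2 in the same cluster, rose at P0 to 47.8 ± 4.66 TPM, against 11.6 ± 0.454 TPM at E12.5 (1.94, adjusted p = 1.39e-08, limma), and did not pass in A6m against P14 (0.13, adjusted p = 0.299, limma). Degs1, the dihydroceramide desaturase, rose at P0 to 168 ± 7.70 TPM, against 66.9 ± 7.67 TPM at E12.5 (adjusted p = 1.29e-07, limma). Hsd17b12 had 139, 140 and 151 TPM at A6m, against 73.9, 70.9 and 71.8 TPM at P14, and rose by 0.98 ± 0.05 (adjusted p = 1.01e-06, limma). Elongation partners also fell: Hacd1, a dehydratase of the elongation cycle, had 11.1 ± 1.03 TPM at A6m against 31.8 ± 1.41 TPM at P14 (-1.44, adjusted p = 6.42e-06, limma). Of the 17 tested genes of this list, 6 rose and 3 fell in A6m against P14, as with scaling (8.78% and 12.1% of all tested genes). Leaving out single libraries left between 3 and 6 rising genes, with 5 of the 12 omissions (P14 replicate 2, P14 replicate 3 and each A6m library) giving fewer than 4.

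Of the 23 regulators of lipogenesis, 6 rose in A6m against P14 and none fell by limma, where 8.78% of all tested genes rose (9 rose with scaling). At an unadjusted p under 0.05, 7 were higher and 0 lower. The list mixes genes that promote and genes that restrain lipogenesis, so these counts give no direction for lipogenesis itself. Among those that rose were Prkaa1, a catalytic subunit of AMP-activated kinase, and Stk11. Prkaa1 averaged 30.6 ± 3.04 TPM at A6m and 22.7 ± 0.868 TPM at P14, and Stk11 54.6 ± 4.54 and 42.3 ± 1.95 TPM. Insig1, which holds SREBP precursors in the endoplasmic reticulum when sterols are high and is itself an SREBP target, had 38.4, 33.5 and 46.4 TPM at A6m, against 18.1, 16.9 and 18.5 TPM at P14, and rose by 1.09 ± 0.12 (adjusted p = 9.75e-05, limma). Its P0 and E12.5 libraries overlapped, with means of 19.6 ± 2.34 TPM at P0 and 20.9 ± 1.44 TPM at E12.5. Srebf2 was at 24.5 ± 1.79 TPM at A6m and 19.7 ± 1.89 TPM at P14 and rose by 0.30 (adjusted p = 0.0324, limma), a call lost without P14 replicate 2, P14 replicate 3, A6m replicate 1 or A6m replicate 3. At P0 Srebf2 fell to 16.9 ± 1.41 TPM, against 28.2 ± 0.118 TPM at E12.5 (-0.71, adjusted p = 3.54e-05, limma; scaled, -0.43), so the Srebf1 to Srebf2 ratio was 3.27 ± 0.217 at P0 and 1.35 ± 0.197 at E12.5. Leaving out single libraries left between 2 and 7 regulators rising in A6m against P14, with the lower counts from leaving out P14 replicate 2 or 3 or A6m replicate 1 or 3. Ppargc1a, a coactivator of mitochondrial genes, rose at P0 to 25.3 ± 0.917 TPM, against 6.25 ± 2.00 TPM at E12.5 (1.90, adjusted p = 3.07e-06, limma), and Prkaa2, a catalytic subunit of AMP-activated kinase that phosphorylates acetyl-CoA carboxylase, rose to 37.4 ± 1.19 TPM at P0, against 11.9 ± 4.38 TPM at E12.5 (1.63, adjusted p = 2.04e-05, limma).

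**Figure D4:**
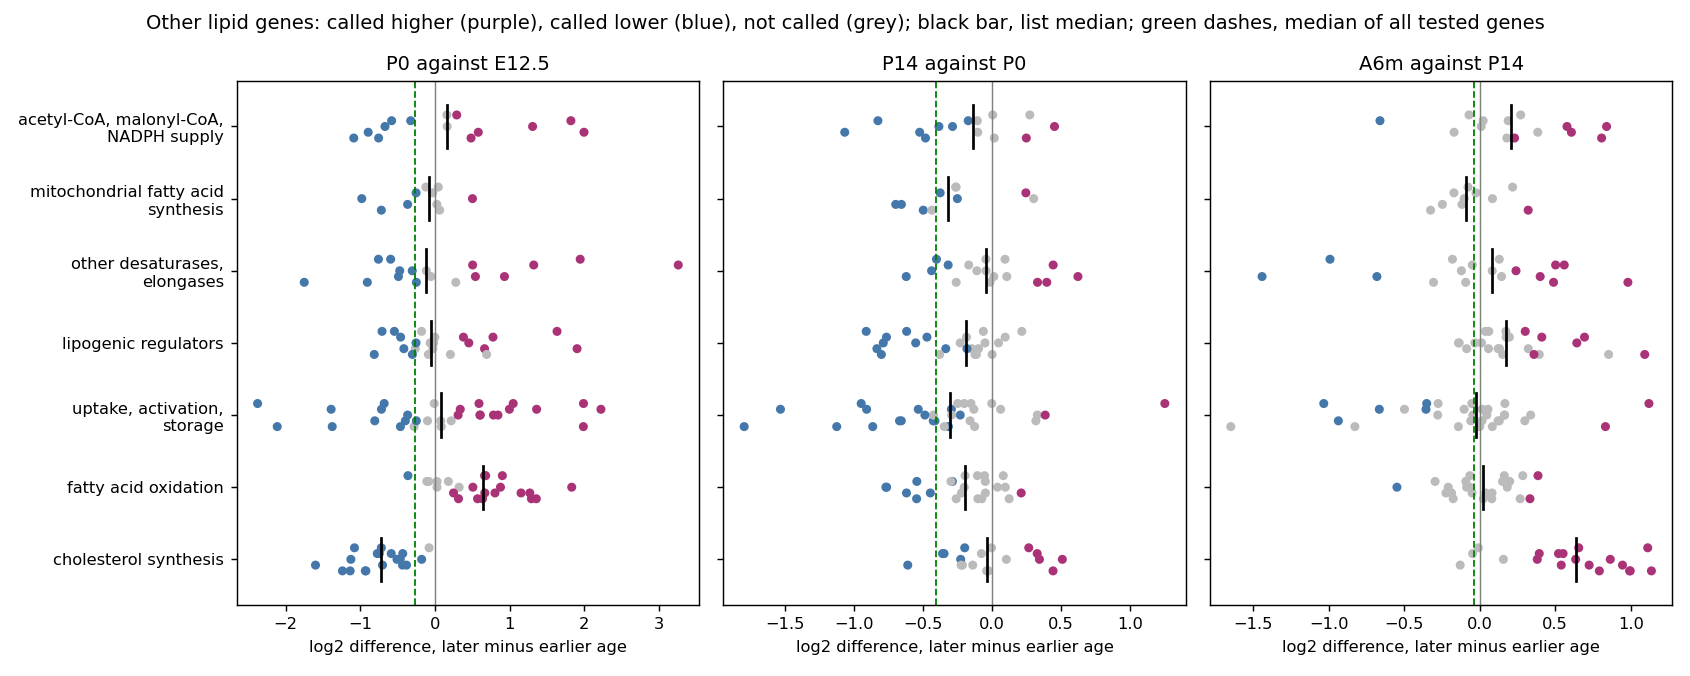
log2 differences of the other lipid genes by list for 3 steps between ages: purple points passed for higher, blue for lower and grey did not pass; black bars are list medians and green dashes the median of all tested genes. In P0 against E12.5, 16 of 23 fatty acid oxidation genes are purple and 18 of 19 cholesterol synthesis genes blue, and in A6m against P14, 15 of 19 cholesterol synthesis genes are purple.

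Cholesterol synthesis, driven by SREBP-2, was listed as the comparison for the fatty acid genes. Most of its genes were lower at P0 than at E12.5 and higher at A6m than at P14. In A6m against P14, 15 of its 19 tested genes rose and none fell by limma (16 and 0 at an unadjusted p under 0.05), with a median of 0.64 against -0.04 over all genes (8.78% of all tested genes rose, and 16 rose with scaling). Leaving out single libraries left 13 to 15. In P0 against E12.5, 18 of the 19 fell and none rose by limma (18 and 0 at an unadjusted p under 0.05), with a median of -0.72 against -0.27 (43.7% of all genes fell, and with scaling 12 fell and 1 rose). In P14 against P0, 5 rose and 5 fell, where 5.33% and 53.5% of all genes did. With scaling 13 rose and 0 fell there, where 22.7% and 19.8% did. In A6m against E12.5, 5 rose and 8 fell, where 15.2% and 62% did. With scaling 15 rose and 2 fell there, where 35.4% and 35.8% did. The course over the 4 ages thus depended on the scale. The named genes of cholesterol synthesis were chosen by the same rule after their values were seen. Fdps, which makes farnesyl diphosphate, had 57.0 ± 2.31 TPM at A6m and 25.4 ± 1.61 TPM at P14 (1.14, adjusted p = 9.41e-06, limma). Idi1, which isomerises its precursor, had 36.5 ± 2.32 TPM at A6m and 16.4 ± 1.54 TPM at P14 (1.11, adjusted p = 2.12e-05, limma). Dividing cell markers were also lower at P0 than at E12.5, and their part in the P0 count was not tested.

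Fatty acid oxidation rose at birth: 16 of 23 genes rose and 1 fell in P0 against E12.5, with a median of 0.64 against -0.27 for all genes (18.6% of all tested genes rose; 21 rose with scaling, and 14 to 17 with single libraries left out). Eci1, an isomerase of unsaturated fatty acid oxidation, had 115, 97.3 and 104 TPM at P0, against 28.7, 25.1 and 33.3 TPM at E12.5, and rose by 1.83 ± 0.10 (adjusted p = 9.71e-08, limma). Acaa2, the thiolase of mitochondrial oxidation, rose to 257 ± 7.40 TPM at P0, against 102 ± 25.0 TPM at E12.5 (1.36, adjusted p = 6.05e-06, limma). Epithelial markers were higher in the same P0 libraries, as given above, and their part was not tested. In A6m against P14, 2 of the 23 rose (Ehhadh by 0.39 and Hadhb by 0.33) and 1 fell (Acadm, -0.55). Over all tested genes 8.78% rose and 12.1% fell there, so nothing is read from these counts. Each of the 3 calls was lost with at least 1 library left out.

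Fatty acid carriers and acyl-CoA synthetases changed in both directions. Fabp5 had 14.9 ± 1.85 TPM at P0, against 82.8 ± 19.97 TPM at E12.5, and fell by 2.38 (adjusted p = 9.13e-07, limma), and Fabp7, a carrier best known from radial glia, fell by 2.11 with widely scattered libraries (73.5, 18.7 and 28.0 TPM at P0, against 97.8, 213 and 163 TPM at E12.5; adjusted p = 5.75e-03, limma). Neuron and astrocyte markers scattered in the same order of libraries within these ages. Neuron marker sums were 31.5, 17.6 and 19.4 TPM in the P0 libraries and 15.5, 106.5 and 41.2 TPM in the E12.5 libraries, and astrocyte marker sums were 182, 121 and 141 TPM at P0 and 132, 208 and 192 TPM at E12.5. Their part in the values of Fabp7 was not tested. Fabp3 rose to 419 ± 33.8 TPM at P0, against 89.2 ± 10.5 TPM at E12.5 (2.22, adjusted p = 3.16e-08, limma). Acsl6, an acyl-CoA synthetase that favours docosahexaenoic acid, had 79.8, 82.1 and 82.2 TPM at A6m, against 39.6, 34.5 and 36.7 TPM at P14, and rose by 1.12 ± 0.13 (adjusted p = 1.93e-04, limma). It was also called at P14 against P0 (1.25, adjusted p = 3.33e-05, limma), and its A6m level was 26.4-fold its E12.5 level of 3.08 ± 0.867 TPM. Lipoprotein lipase (Lpl) fell at P14 to 9.55 ± 2.60 TPM, against 29.1 ± 3.82 TPM at P0 (-1.53, adjusted p = 1.43e-04, limma). In this list of 30 tested genes, 13 rose and 11 fell in P0 against E12.5, where 18.6% and 43.7% of all tested genes did (16 and 7 with scaling). In A6m against P14, 2 rose and 5 fell, where 8.78% and 12.1% did (4 and 7 with scaling), which is near the share over all genes.

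**Figure D5:**
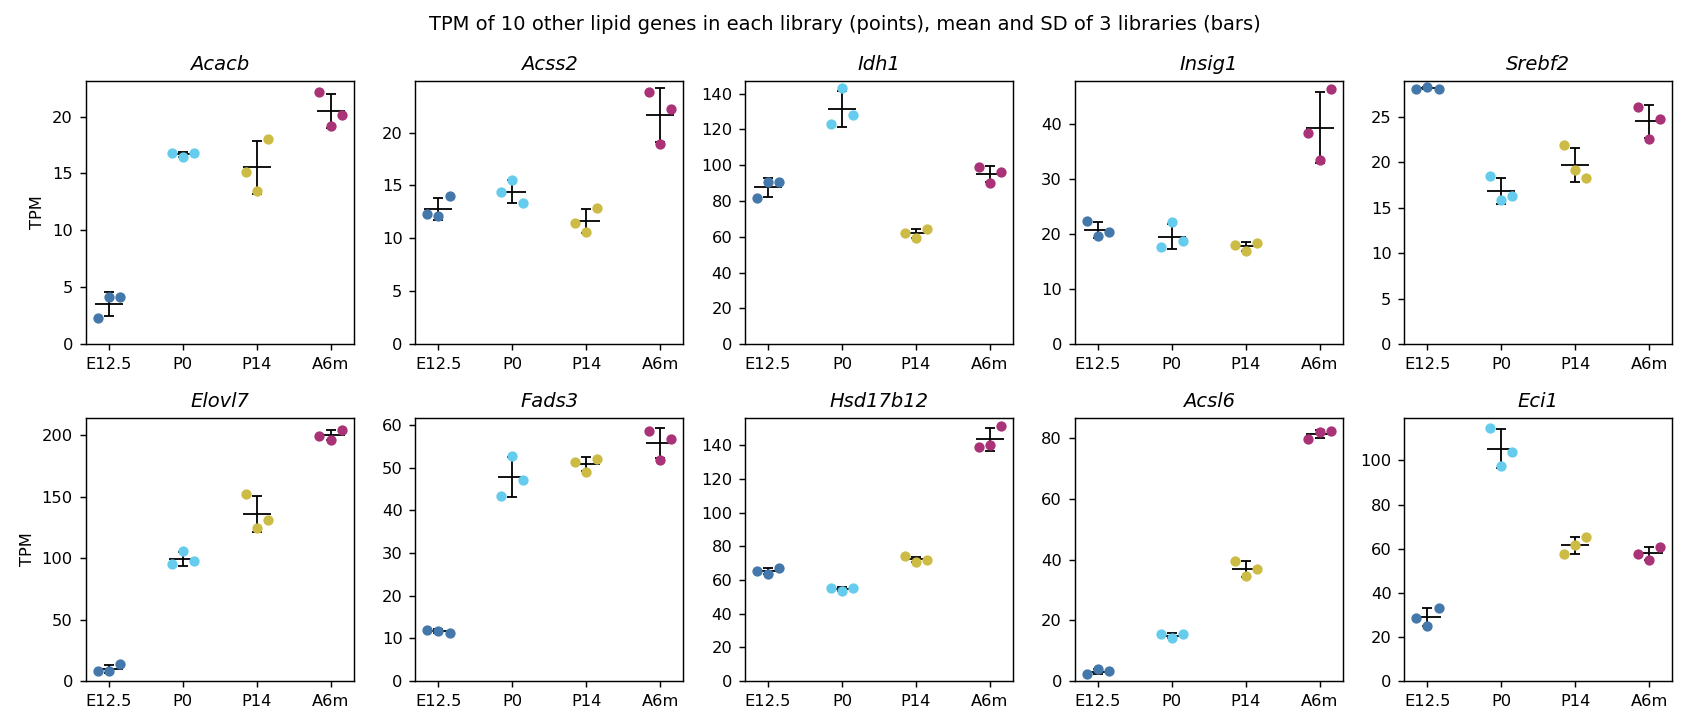
TPM of 10 other lipid genes in the 12 libraries (points) with mean and SD of 3 libraries an age (bars), linear axes from 0. Insig1, Hsd17b12 and Acss2 are highest at A6m, Acacb, Fads3 and Elovl7 are lowest at E12.5, and Acsl6 is higher at each later age.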

How the data were processed

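Choroid plexus RNA of 12 B6 mouse libraries was sequenced as 100 bp paired ends, per the series' design text, from a Kapa mRNA HyperPrep kit, per the labels' protocols. The authors deposited TPM values, computed with kallisto on GRCm38 per the submitters' processing notes; its version is not given in the sources used here. Read numbers cannot be had from TPM, so the depth is unknown and no counting interval applies. The table held 7 further columns of per-sample values that were not used, and mutant tissue was not analysed here.

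Columns were matched to samples by name. The deposited TPM became log2(TPM + 1). Genes with at least 1 TPM in at least 3 of the 12 libraries entered the fit, which left 17422. limma 3.58.1 in R 4.3.3 was fitted to 4 group means over all 12 libraries (8 residual degrees of freedom, eBayes with trend), with Benjamini-Hochberg adjustment over all tested genes and calls at an adjusted p under 0.05. The fit was tested on simulated data. The members and the gene lists were chosen with earlier results of these data known, so no p is given for the 10 genes. Genes named per list were up to 3 called genes a comparison with the largest absolute difference and at least 5 TPM in the higher age. Genes named by likeness were the 3 highest by Pearson's r with at least 20 TPM in the highest age, leaving out unnamed models and mitochondrially encoded genes, and Insig1, Srebf2, Scd3, Scd4, Fads3 and Acacb were named in any case. The text prints a part of them, and some are not reported here.

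Specimens are independent per the series' design text, but nothing says how replicate numbers were given, so p-values measure the spread between these libraries. Alternatives changed 1 choice at a time: the pseudocount (0.1 or 5), the filter (none, or at least 5 TPM on average), the normalization (quantile, median-of-ratios, or TPM recomputed after removing the 10 most abundant genes), the fit (the 6 libraries compared, or a replicate block) and the libraries (each omitted in turn). Python 3.11.15 with matplotlib 3.10.9 drew the figures.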

Additional observations from a re-analysis of the deposited data

How the results depend on the processing

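Scaling decided several counts of the 117 other lipid genes. Under median-of-ratios scaling, quantile normalization and rescaling without the 10 most abundant genes, the genes that fell in P0 against E12.5 numbered 19, 21 and 19 in place of 37, those that rose in P14 against P0 numbered 54, 41 and 22 in place of 10, those that fell in P14 against P0 numbered 9, 17 and 31 in place of 48, and those that rose in A6m against E12.5 numbered 81, 77 and 71 in place of 45. Those that fell in A6m against E12.5 numbered 17 with scaling and 23 with quantile normalization in place of 43. With each library left out, all genes called numbered 9894 to 11334 (P0 against E12.5), 8774 to 11084 (P14 against P0), 2638 to 4631 (A6m against P14) and 12788 to 13712 (A6m against E12.5). The lipid genes that rose numbered 45 to 49, 7 to 12, 12 to 29 and 41 to 46 in these comparisons, and those that fell 28 to 38, 40 to 53, 5 to 13 and 42 to 47. In A6m against P14 the 22 that rose came to 13 without P14 replicate 2, 14 without P14 replicate 3, 12 without A6m replicate 1 and 14 without A6m replicate 3, and the 10 that fell to 5 without P14 replicate 3 and 5 without A6m replicate 2. The rescalings move the centre of all genes, and leaving out a library lowers the number of samples. Some counts went up although fewer samples remained. E12.5 replicate 1 is outside A6m against P14, but the fit over all 12 libraries shares its spread. Without it, 4 uptake and storage genes rose and 7 fell there, in place of 2 and 5. Of the oxidation genes 4 rose and 2 fell, in place of 2 and 1. No list of lipid genes had fewer calls there. The part of this library and other causes were not tested. Signs turned, among others, for Srebf1 in P14 against P0 (0.15 with scaling), for Acly in A6m against E12.5 (0.32 with scaling, 0.0175 with quantile normalization), for Srebf2 in A6m against E12.5 (0.63, 0.47 and 0.27 under the 3 rescalings) and, in P14 against P0, for Acacb (0.38 with scaling, 0.33 with quantile normalization), Insig1 (0.37 with scaling), G6pdx (0.0079 with quantile normalization) and Acsf3 (0.0058 with quantile normalization). Among differences of the 10 genes that did not pass as deposited, scaling also turned the sign of Acly (0.35) and Elovl6 (0.42) in P14 against P0, Scd2 in A6m against E12.5 (0.77) and Fads2 in P0 against E12.5 (0.27). For the 10 genes, all 480 differences with a library left out stayed within 1 SD of the ages compared. Omitting 1 of 3 libraries cannot move a mean that far, so this outcome was fixed in advance and nothing is read from it. Same-numbered libraries of different ages correlated between -0.08 and 0.11, 1 of 18 pairs over 0.1. With 3 libraries an age, such low values cannot decide whether the numbers pair the samples. With the replicate block, 10568, 9897, 3162 and 13334 genes were called in the same order of comparisons, 49, 11, 18 and 45 lipid genes rose and 33, 45, 8 and 43 fell. Depth limits cannot be stated for TPM.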
